A study of Rattus norvegicus with 10 samples.

Results

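The genes described here are 10 genes of smooth muscle cells, myofibroblasts and pericytes: Acta2, Tagln, Myh11, Cnn1, Myl9, Actg2, Des, Rgs5, Cspg4 and Mylk. They were read in rat left ventricle on Affymetrix expression arrays. Every probe set that the platform annotation assigns to 1 of these genes alone was taken, which gave 12 probe sets out of 31042 that are not array controls, for 10 of 14217 named genes. A further 5 probe sets list Acta2 together with Actc1, the cardiac actin, and were left out because their signal cannot be assigned to either gene.

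The samples were left ventricles of male Sprague-Dawley rats of 250 to 300 g, taken on day 3 after gene transfer. In 5 samples the transferred gene was that of GATA-4, a zinc finger transcription factor of the heart, and in the other 5 it was LacZ, the bacterial beta-galactosidase gene. Both groups therefore underwent gene transfer, and untreated ventricle was not analysed here. How the genes were delivered, and under which promoter, is not stated in the labels. Nothing in the sample labels ties a sample to an animal, so the p-values measure only the spread between these samples, which may be technical. The ventricle is a mixed tissue, and in such bulk RNA fewer cells of a type and less RNA per cell cannot be told apart.

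Smooth muscle cells contract when a calcium-activated kinase phosphorylates the regulatory light chain of myosin, which then pulls on smooth muscle actin. The genes for these proteins are switched on together by serum response factor and its partner myocardin, which bind a short DNA element called the CArG box. Fibroblasts that turn into myofibroblasts in injured heart muscle take up part of the same program, Acta2 above all, while pericytes of capillaries carry Rgs5 and Cspg4.

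The promoter of Acta2 is shown because this gene is the usual marker of the program and had the largest difference of the 10. The stretch holds the 250 bases before the RefSeq start, at chr1:241172504-241172753 on the minus strand of GRCr8, with CArG-like matches in capitals.
Acta2: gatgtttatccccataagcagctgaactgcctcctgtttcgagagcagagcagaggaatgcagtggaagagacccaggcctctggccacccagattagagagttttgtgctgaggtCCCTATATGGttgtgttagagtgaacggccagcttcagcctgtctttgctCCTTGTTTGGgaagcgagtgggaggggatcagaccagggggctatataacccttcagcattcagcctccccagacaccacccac
The search looked for CC and GG with 6 bases between them, of which at least 5 were A or T, a pattern that reads the same on both strands. Acta2 had 2 such matches, CCCTATATGG and CCTTGTTTGG, which begin 134 and 84 bases before the start. The other 6 members with a RefSeq window had none, and 8.08% of all 33469 windows of this length had at least 1. Tagln, Myh11 and Myl9 had no window and were not searched. With all 6 middle bases A or T none of the 7 members searched matched, against 1.5% of all windows. The GATA motif, the letters AGATAA or its forms with T first or G last, searched on both strands, was found in the window of 1 of the 7 members, Actg2, and in 27.0% of all windows. None of these 7 held both motifs, so they did not overlap. A missing match says only that the letters are not in this window.

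The signals of GATA-4 array 1 were dim. Its 2%-trimmed mean intensity was 142.3, against 249.2 to 328.7 on the other 9 arrays, and quantile normalization brings all arrays to one distribution. It stands apart in Acta2, and each member is given with and without it. As a test of the labels, Gata4 itself was 1.73-fold higher with GATA-4 by its brighter probe set (limma adjusted p = 0.00131), and its groups did not overlap. Of 28 listed cardiomyocyte genes 27 were above the signal filter, so the heart muscle named in the labels was measured.

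None of the 10 contractile and mural genes passed the test between the groups. Of these genes 0 rose and 0 fell at an adjusted p under 0.05 in limma, where 6.37% of the 10688 genes tested passed, 3.71% higher and 2.66% lower. At an unadjusted p under 0.05 the count was also 0 of 10, against 24.2% of all genes, and at an unadjusted p under 0.1 it was 5 of 10, against 33.7%. The 0 at an unadjusted p under 0.05 was not stable. It became 3 without GATA-4 array 4 (Actg2, Mylk and Tagln), 2 without LacZ array 5 (Acta2 and Actg2), and 1 without LacZ array 1 (Tagln) or 2 (Actg2) or GATA-4 array 1 (Mylk), 3 (Tagln) or 5 (Myl9). In these leave-one-out fits 20.5% to 34.1% of all genes were past that level. The count was also 3 with array weights and without GATA-4 arrays 4 and 5, where 34.4% and 20.6% of all genes were past it. With no filter it was 2 of 12 probe sets (Mylk and Tagln), against 19.9% of all genes. It was 2 with median centring and no GATA-4 array 1 (Des and Mylk), against 32.2%, and 1 with median centring alone (Mylk), against 23.9%. The exact permutation test over all assignments of the arrays, run without adjustment, gave 1 of 10 under 0.05, Mylk. That test was not run on all genes, so no share of all genes stands beside this count, and it is not read as a result. In no member were the groups free of overlap, as they were in 9.66% of genes. The difference was positive in 7 members and negative in 3, while 47.4% of all genes had a positive one. The median difference was 0.13 on the log2 scale for the members and -0.02 for all genes. As a size without regard to sign, the median was 0.19 for the members and 0.17 for all genes.

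**Figure D1:**
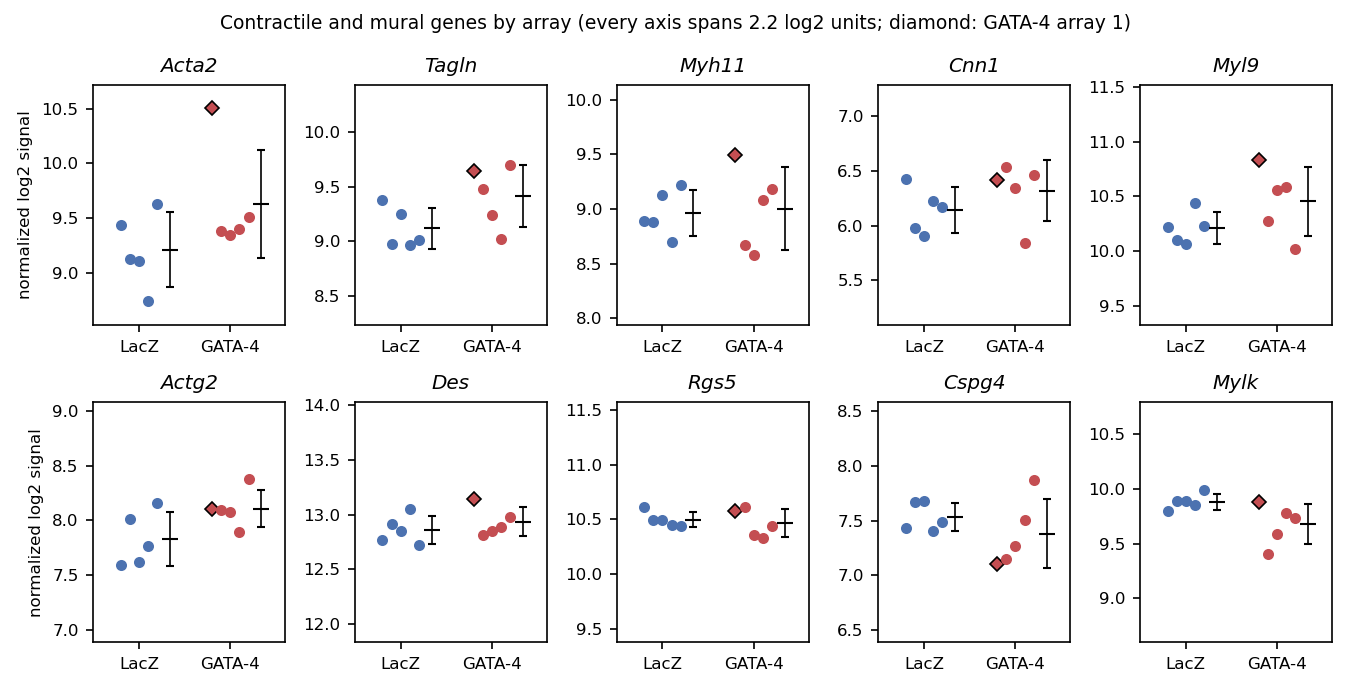
Normalized log2 signal of the 10 genes on each array, LacZ in blue and GATA-4 in red; bars are the mean and SD of 5 arrays and the diamond is GATA-4 array 1. The groups overlap in every panel, and in Acta2 the diamond at 10.50 lies apart from the other 4 GATA-4 arrays at 9.35 to 9.51.

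The intervals show what size of change these arrays leave room for. All 10 of the 95% intervals of the limma fit included 0, and up to 3 did not when 1 array was left out, as the counts at an unadjusted p under 0.05 give. All 10 lay inside a 2-fold change in either direction. The interval of Acta2 reached a 2-fold rise without LacZ array 5 or GATA-4 array 2, 3 or 4, and without GATA-4 arrays 4 and 5 together. With no filter, where all 12 probe sets were tested, the intervals of 1 Myh11 and 1 Mylk probe set reached a 2-fold change. An increase of 1.5-fold lay outside 8 of the 10 intervals, those of Acta2 and Tagln being the exceptions, and a decrease of 1.5-fold lay outside all 10. A 1.5-fold increase lay inside 5 intervals without LacZ array 4, 4 without LacZ array 5 or GATA-4 array 2 or 4, 3 without LacZ array 1 or 2 or GATA-4 array 3, and 0 without GATA-4 array 1. A 1.5-fold decrease stayed outside all intervals in each leave-one-out fit. It lay inside 3 with the signals as deposited and inside 1 without GATA-4 arrays 4 and 5. In each of these settings a 1.5-fold increase lay inside 5. With no filter a 1.5-fold decrease lay inside 1 of the 12 intervals and a 1.5-fold increase inside 4.

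**Figure D2:**
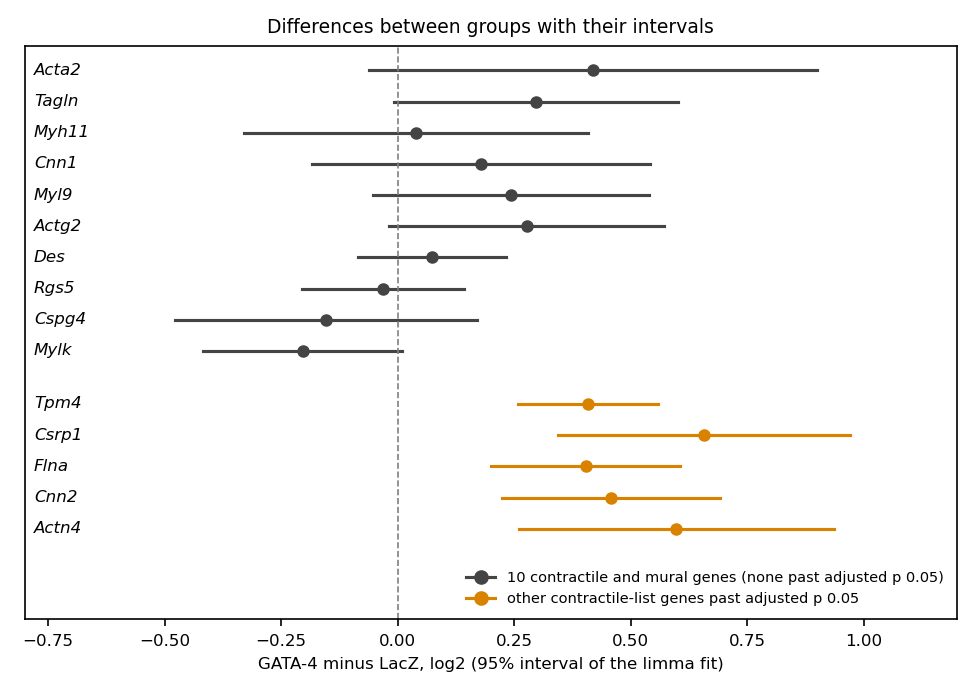
Difference between groups in log2 signal, with the 95% interval of the limma fit, for the 10 genes (grey) and for 5 other genes of contractile and actin-bound proteins that passed the test (orange). The grey intervals all cross 0, from -0.20 for Mylk to 0.42 for Acta2 in their centres, and the orange ones lie above 0.

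Among the thin-filament genes, Acta2 encodes smooth muscle alpha-actin. Its probe set 1370857_at read 9.44, 9.13, 9.11, 8.74 and 9.63 on LacZ arrays 1 to 5 and 10.50, 9.38, 9.35, 9.40 and 9.51 on GATA-4 arrays 1 to 5. The dim array lay highest of all 10, while GATA-4 arrays 2 to 5 lay close together inside the LacZ range. The mean was 9.21 ± 0.34 for LacZ and 9.63 ± 0.49 for GATA-4 (SD, 5 arrays each; exact permutation p = 0.151). The difference was 0.42 (SE 0.22, 95% interval -0.06 to 0.90), or 1.34-fold, and limma's adjusted p was 0.291. Without the dim array the difference was 0.20 and the adjusted p 0.391.

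Actg2, which encodes the smooth muscle gamma-actin best known from gut and bladder, differed by 0.28 (SE 0.14, interval -0.02 to 0.57; limma adjusted p = 0.256). Its probe set 1386869_at read 7.59, 8.02, 7.62, 7.77 and 8.16 on the LacZ arrays and 8.10, 8.09, 8.07, 7.90 and 8.38 on the GATA-4 arrays. All 5 GATA-4 arrays were above the LacZ median, but 1 was above the highest LacZ array. Here the dim array lay among the others, and without it the difference was again 0.28.

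Tagln encodes transgelin, an actin-binding protein of differentiated smooth muscle also called SM22. The values of probe set 1367570_at were 9.38, 8.98, 9.25, 8.97 and 9.02 with LacZ and 9.64, 9.48, 9.24, 9.02 and 9.70 with GATA-4. GATA-4 arrays 1, 2 and 5 exceeded the highest LacZ array, while arrays 3 and 4 lay within the LacZ range. The difference of 0.30 (SE 0.14, interval -0.01 to 0.60), or 1.23-fold, had the smallest adjusted p of the 10 genes, 0.238 in limma, with an exact permutation p of 0.0873. Without the dim array the log2 difference of Tagln was 0.24. Cnn1, which encodes calponin 1, a thin-filament protein that damps the myosin motor, ranged from 5.91 to 6.43 with LacZ and from 5.84 to 6.54 with GATA-4. Its mean difference was 0.18 (SE 0.17; limma adjusted p = 0.572). The log2 difference of Cnn1 was 0.16 without the dim array and 0.30 without GATA-4 array 4, its lowest.

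On the motor side, Myh11 encodes the smooth muscle myosin heavy chain, the most specific marker of differentiated smooth muscle. Its brighter probe set, 1370896_a_at, read 8.69 to 9.22 with LacZ (median 8.89) and 8.58 to 9.50 with GATA-4 (median 9.08), and the GATA-4 arrays lay on both sides of the LacZ range. The difference was 0.04 (SE 0.17, interval -0.33 to 0.41; limma adjusted p = 0.916). Its sign turned with the setting, to -0.08 without the dim array and to -0.01 with median centring. The second Myh11 probe set, 1381219_at, was too dim to be tested and read 3.11 ± 1.08 against 2.76 ± 1.05 (SD, n = 5 each; exact permutation p = 0.579).

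Myl9 encodes the regulatory light chain that the kinase phosphorylates. Probe set 1388298_at read 10.22, 10.10, 10.06, 10.44 and 10.23 with LacZ and 10.83, 10.27, 10.56, 10.59 and 10.02 with GATA-4. GATA-4 arrays 1, 3 and 4 were above all LacZ arrays and array 5 was below all of them. The difference was 0.24 (SE 0.14, interval -0.05 to 0.54; limma adjusted p = 0.321), and 0.15 without the dim array.

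Mylk, the gene of the myosin light chain kinase itself, pointed the other way. Probe set 1371541_at read 9.79, 9.89, 9.89, 9.85 and 9.99 with LacZ and 9.88, 9.40, 9.59, 9.78 and 9.74 with GATA-4. GATA-4 arrays 2 to 5 lay below the lowest LacZ array, and the dim array lay inside the LacZ range. The mean was 9.88 ± 0.07 for LacZ and 9.68 ± 0.19 for GATA-4 (SD, 5 arrays each; exact permutation p = 0.0317, unadjusted). The difference of -0.20 (SE 0.10, interval -0.42 to 0.01) did not pass limma, with an adjusted p of 0.249. It was negative under each of the 21 other settings. The log2 difference of Mylk was -0.25 without the dim array and -0.13 without GATA-4 array 2, its lowest. With median centring and without the dim array it was -0.30 and passed, at an adjusted p of 0.0404 in limma; the settings together spanned 0.0404 to 0.993. A second Mylk probe set, 1384818_at, too dim to be tested, had means of 4.26 ± 0.53 for LacZ and 4.78 ± 0.62 for GATA-4 (SD, 5 arrays each; exact permutation p = 0.198). Its difference, 0.52, had the opposite sign.

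Desmin, the muscle intermediate filament that ties myofibrils together, is abundant in cardiomyocytes as well as in smooth muscle, so Des reads both. It ranged from 12.72 to 13.05 with LacZ and from 12.82 to 13.14 with GATA-4 and differed by 0.07 (SE 0.07, interval -0.08 to 0.23; limma adjusted p = 0.593). The log2 difference of Des was 0.02 without the dim array. The sign was negative, at -0.14, with median centring and without the dim array. In that setting the unadjusted p of Des in limma was under 0.05, while its adjusted p was not.

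Neither pericyte gene passed the test. Rgs5, which encodes a regulator of G-protein signalling typical of pericytes, was with Mylk the most even of the 10 on the LacZ arrays. Its values were 10.50 ± 0.07 with LacZ and 10.46 ± 0.13 with GATA-4 (SD, n = 5 each, exact permutation p = 0.627). Its difference of -0.03 (SE 0.08, interval -0.20 to 0.14; limma adjusted p = 0.853) turned to 0.002 without GATA-4 array 4. Without the dim array the log2 difference of Rgs5 was -0.06. Cspg4, the gene of the NG2 proteoglycan on the surface of pericytes, read 7.44, 7.67, 7.68, 7.40 and 7.49 with LacZ and 7.10, 7.15, 7.27, 7.50 and 7.87 with GATA-4. Its GATA-4 arrays spread over both sides of the LacZ range, 3 below it and 1 above it. The difference was -0.15 (SE 0.15; limma adjusted p = 0.59). The log2 difference of Cspg4 was -0.08 without the dim array, -0.09 without GATA-4 array 2 and -0.28 without GATA-4 array 5. Over all settings it ran from -0.36 to -0.005.

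**Figure D3:**
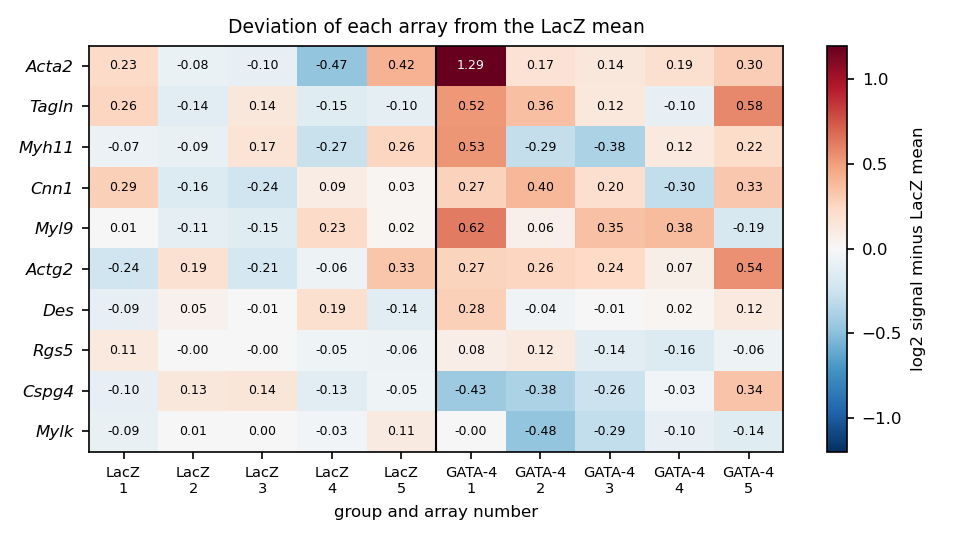
Log2 signal of each array minus the LacZ mean for the 10 genes, arrays in columns and genes in rows; red is above and blue below the LacZ mean. The deepest cell is Acta2 on GATA-4 array 1, at 1.29, and the 4 lowest cells of Mylk are those of GATA-4 arrays 2 to 5.

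Deviations from the group means were compared between members over the 10 arrays, as a description, since the genes share arrays and normalization. Pearson's r was positive in 31 of the 45 pairs, with a median of 0.16, and without the dim array in 25 pairs, with a median of 0.02. The closest pair was Myh11 and Mylk, the motor and its kinase, with r of 0.84 over 10 arrays and 0.75 without the dim array. The order of the other pairs changed with that array. Acta2 and Myh11 came next at 0.77, and at 0.56 without it, behind 5 further pairs. Myl9 and Cspg4 were most opposed at -0.72, while without it Acta2 and Des were, at -0.81, against 0.15 with it. Among all 10688 genes tested, those whose deviations were most like those of Acta2 were E2f6, Prom1, Meis1, Pcsk4 and Spout1, with r from 0.94 to 0.96 over 10 arrays, and from 0.82 to 0.88 over the 9 arrays without the dim one. Those most like Myh11 were Car4, Dock6, Usp24, Prob1 and Atp5me, with r from 0.93 to 0.95, and from 0.89 to 0.94 without the dim array. Neither list holds a member. By likeness to Acta2, Myh11 ranked 395 and Tagln 2476 of 10687 genes, and by likeness to Myh11, Mylk ranked 118.

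Around the 10 genes, a wider list of 28 measured genes for contractile and actin-bound proteins held 5 that rose and none that fell, 17.9% of the list against the 6.37% of all genes. The list's median difference was 0.01. Tpm4, a tropomyosin of many cell types, rose 1.33-fold (limma adjusted p = 0.00983). Its LacZ arrays read 11.54 to 11.77 and its GATA-4 arrays 11.92 to 12.23, with no overlap. Csrp1, a LIM protein bound to the actin cytoskeleton, rose 1.58-fold (adjusted p = 0.0249), Flna, the actin crosslinker filamin A, 1.32-fold (adjusted p = 0.0294) and Cnn2, a calponin found outside smooth muscle too, 1.37-fold (adjusted p = 0.0308). The fifth, Actn4, a non-muscle alpha-actinin named after its values were seen, rose 1.51-fold (adjusted p = 0.0455 in limma).

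Csrp1, Flna and Cnn2 lost their calls when some single arrays were left out. Of 10 leave-one-out fits Tpm4 passed in 10, Csrp1 in 6, and Flna and Cnn2 in 4 each. The count of 5 was 10 without GATA-4 array 1, 3 without LacZ array 1, LacZ array 4, GATA-4 array 4 or GATA-4 array 5, 2 without GATA-4 array 3, and 1 without LacZ array 3 or LacZ array 5. With median centring 2 genes of the list passed. Of all 18625 probe sets the fit without GATA-4 array 1 called 1464 higher and 1385 lower, against 566 and 422 with every array. List counts without that array, here and below, stand beside this larger number of calls. In the same wider contractile list, Smtn, Lmod1 and Synpo2 (picked with their values in view) had differences of -0.18, 0.17 and 0.20. None of these passed (limma adjusted p from 0.39 to 0.70). Tpm2 and Csrp2, also picked with their values in view, differed by 0.34 and 0.51 and did not pass (limma adjusted p = 0.0604 and 0.221). Over the whole list 14 of 28 genes had a positive difference.

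Some members have close relatives, many of them made in other cells, and the pairs were compared within arrays, as the log2 signal of the relative minus that of the member. The 12 pairs were chosen after the values were seen. With 12 pairs, a pair that alone reaches the smallest exact p has an adjusted p of 0.0952, and no pair passed. The regulators Rgs4 and Rgs5 parted the most. Rgs4, which also limits G-protein signals and is listed below among the pericyte and mural cell markers, fell 1.55-fold (limma adjusted p = 0.0267). It read 10.14, 9.94, 9.99, 9.78 and 9.73 with LacZ and 8.95, 9.80, 9.16, 9.29 and 9.20 with GATA-4. Of the GATA-4 arrays 4 lay below all LacZ arrays, and array 2 lay inside their range. Relative to Rgs5 the difference was -0.61, with all 5 GATA-4 arrays below all LacZ arrays (exact permutation p = 0.00794, the smallest possible, adjusted 0.0952). It was -0.50 without the dim array. Taken alone, Rgs4 stayed past the limma threshold in 2 of 10 leave-one-out fits.

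Calponin 2 stood 0.28 further from calponin 1 with GATA-4 than with LacZ (exact permutation p = 0.0794, adjusted 0.476), so the rise of Cnn2 was not shown to differ from the unpassed difference of Cnn1. The cytoplasmic gamma-actin gene Actg1 differed by 0.12 and did not pass (limma adjusted p = 0.198), and against Acta2 and Actg2 its pair values were -0.30 and -0.16. Tagln2, the transgelin of non-muscle cells, differed by 0.25 (limma adjusted p = 0.155), close to the 0.30 of Tagln. The non-muscle myosins Myh9 and Myh10 differed by 0.19 and 0.04. The light chains Myl12a and Myl12b had differences of -0.04 and 0.10, and none of these 4 passed. Vim, the filament gene of fibroblasts and endothelium, differed by 0.18 (limma adjusted p = 0.0529) beside the 0.07 of Des.

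**Figure D4:**
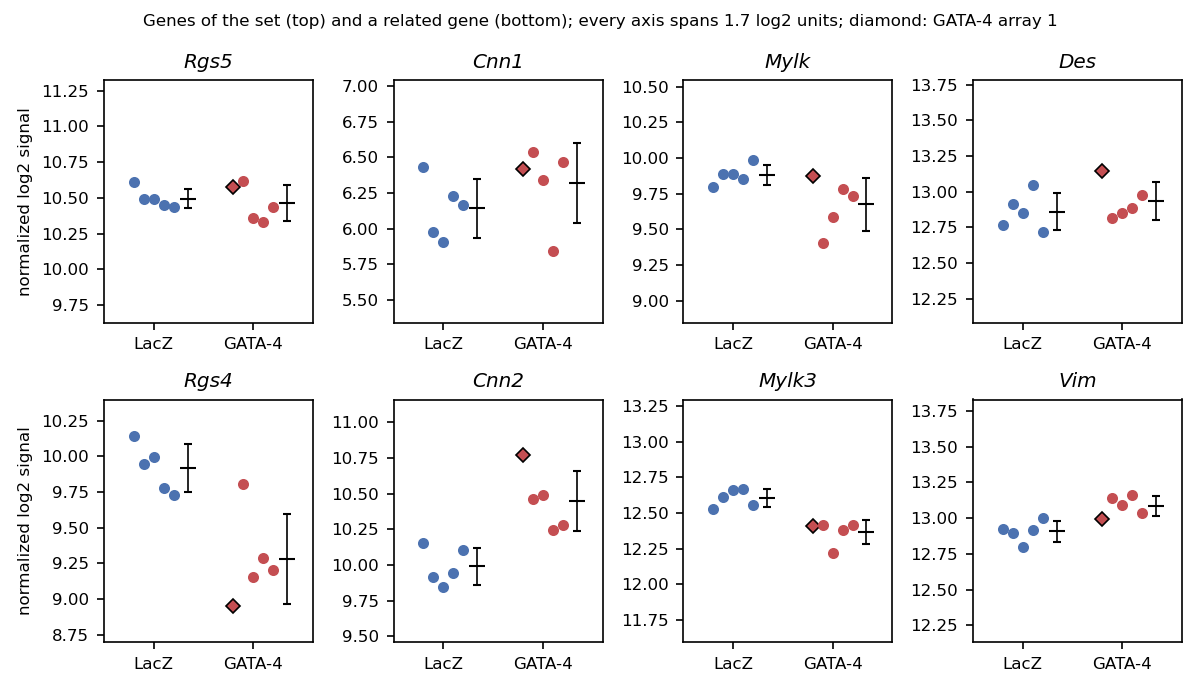
Normalized log2 signal by array of Rgs5, Cnn1, Mylk and Des (top) and of the related Rgs4, Cnn2, Mylk3 and Vim (bottom); bars are the mean and SD of 5 arrays and the diamond is GATA-4 array 1. Levels of different probe sets are not comparable, and the groups lie apart in Cnn2 and Mylk3 and overlap in the other 6 panels.

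Of 16 measured genes of light chain phosphorylation and RhoA signalling none rose and 1 fell, 6.25% of the list against 6.37% of all genes. The gene that fell was Mylk3, the light chain kinase of cardiomyocytes, by 0.24 on the log2 scale (limma adjusted p = 0.0266). Its LacZ arrays read 12.53 to 12.67 and its GATA-4 arrays 12.22 to 12.42. Of 10 leave-one-out fits 4 kept this call, and under median centring the log2 difference of Mylk3 did not pass (limma adjusted p = 0.0743). The list held 2 calls without GATA-4 array 1 and none without LacZ array 2, 3, 4 or 5 or GATA-4 array 3 or 4. The change of Mylk3 and the difference of Mylk were nearly equal, with a pair value of -0.03. Rhoa, Rock1, Rock2 and the phosphatase inhibitor Ppp1r14a, picked with their values in view, had differences of 0.21, 0.01, -0.09 and 0.01, none past the threshold.

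The regulators of the program did not pass either. Among 28 measured genes of the serum response factor, myocardin and TGF-beta circuits 0 rose and 0 fell in limma, against 6.37% of all genes. The list's median difference was -0.11, and 11 genes had a positive one. Srf, Mef2a, Hey2, Myocd, Mrtfa and Tgfb1 are named here after their values were seen. Srf, the gene of serum response factor, read 9.90 ± 0.09 with LacZ and 9.73 ± 0.06 with GATA-4 (SD, n = 5 each; exact permutation p = 0.00794, unadjusted, the smallest possible). All 5 of its GATA-4 arrays lay below all LacZ arrays, yet limma's adjusted p for the difference of -0.17 was 0.229. Of all genes tested 9.66% had groups without overlap. Mef2a had none either, with a difference of -0.26 (limma adjusted p = 0.168). The smallest limma adjusted p of the list was that of Hey2, 0.0668, for a difference of -0.52. Myocd differed by -0.16 (limma adjusted p = 0.532). Mrtfa, a myocardin relative that answers to actin polymerization, differed by 0.56, and Tgfb1, the main inducer of myofibroblasts, by 0.62, with limma adjusted p-values of 0.0979 and 0.0792. Both were highest of all arrays on the dim array, at 8.26 and 9.26. Without it their GATA-4 means were 7.57 and 8.41, beside LacZ means of 7.15 and 7.96. Without the dim array 4 genes of this list passed, and without GATA-4 array 2 it was 1. Leaving out the dim array also raised the calls among all 18625 probe sets, to 1464 higher and 1385 lower from 566 and 422.

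Of 17 measured receptor and channel genes 1 rose and 1 fell, 11.8% of the list against 6.37% of all genes. Sphk1, the kinase that makes sphingosine 1-phosphate, rose 2.21-fold (limma adjusted p = 0.0229) from a low LacZ signal of 5.81. Adra1b, the alpha-1B adrenergic receptor, fell 1.53-fold (adjusted p = 0.0068). Adra1b read 10.27 to 10.61 with LacZ and 9.70 to 9.99 with GATA-4, and it passed in 10 of 10 leave-one-out fits, Sphk1 in 7. The list held 4 calls without GATA-4 array 1 and 1 without LacZ array 3, LacZ array 4 or GATA-4 array 3. The adrenergic receptor is also made by cardiomyocytes.

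Among 20 measured pericyte and mural cell markers 1 rose and 2 fell, 15% of the list against 6.37% of all genes. A positive difference was found in 3, and the list's median was -0.15. Enpep, a membrane aminopeptidase that cleaves angiotensin, fell 1.43-fold (limma adjusted p = 0.0157). Its LacZ arrays read 9.91 to 10.11 and its GATA-4 arrays 9.28 to 9.78. Anpep, a related aminopeptidase that myeloid cells carry as well, rose 1.66-fold (adjusted p = 0.0136), and Rgs4 was the other fall. Pdgfrb, Kcnj8, Abcc9 and Notch3 (picked with their values in view) had differences of -0.11, -0.19, -0.18 and -0.02, none past the threshold. Averaged over the list, LacZ arrays deviated by 0.05 to 0.12, GATA-4 arrays 2 to 5 by -0.25 to -0.05, and the dim array by 0.11. Without the dim array 5 markers passed, without LacZ array 3 none did, and without GATA-4 arrays 4 and 5 none did. Leaving out LacZ array 1, 2, 4 or 5 or GATA-4 array 3, 4 or 5 one at a time gave 2.

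Of 33 measured markers of activated fibroblasts and myofibroblasts, 5 rose and 0 fell, 15.2% of the list against 6.37% of all genes. The list's median difference was 0.25, and 25 markers had a positive one. The matrix protein tenascin-C (Tnc) rose 2.14-fold, the proteinase inhibitor Timp1 2.06-fold, Zyx, the focal adhesion protein zyxin, 1.86-fold and fibronectin (Fn1) 1.62-fold. Their limma adjusted p-values lay between 0.00303 and 0.00645, and each call held in 10 of 10 leave-one-out fits. The fifth, Tgfbi, named after its values were seen, rose 1.54-fold (adjusted p = 0.0157 in limma). Postn and Fap, also named after their values were seen and both widely used markers of activated fibroblasts, differed by 0.04 and -0.14 and did not pass. Aspn, Ccn1 and Mfap4, again named after their values were seen, differed by -0.63, -0.88 and -0.35. They did not pass either (limma adjusted p from 0.102 to 0.409). The groups of Aspn did not overlap, as in 9.66% of all genes. Without the dim array 12 markers passed. Of 14 markers of resting fibroblasts 0 rose and 1 fell, 7.14% of the list against 6.37% of all genes. The fall was that of the matrix protein gene Dpt, by 0.31 on the log2 scale (limma adjusted p = 0.0452). It was kept by 2 of 10 leave-one-out fits. That list held 4 calls without GATA-4 array 1, 3 without GATA-4 array 2, and none without LacZ array 1, 2, 3 or 4 or GATA-4 array 3, 4 or 5.

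**Figure D5:**
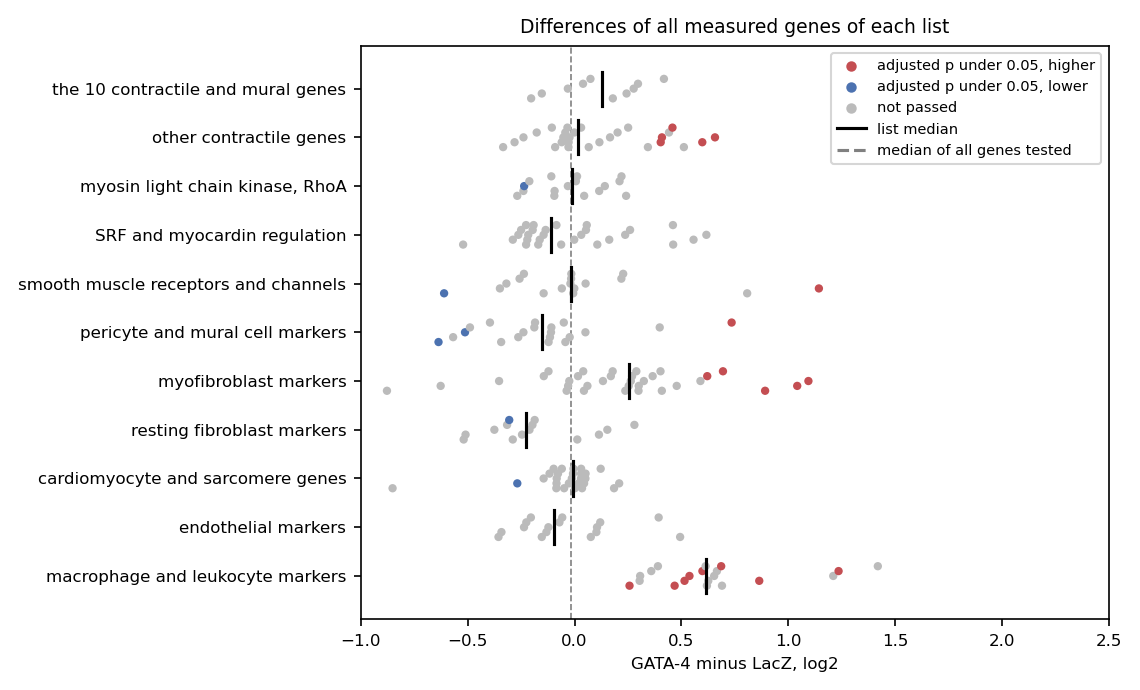
Difference between groups for every measured gene of 11 lists, one dot per gene, red for rises and blue for falls at an adjusted p under 0.05 and grey for the rest; black bars are list medians and the dashed line is the median of all genes tested, -0.02. The top row, with the 10 contractile and mural genes, has no coloured dot, and its median is 0.13.

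Markers of other cell types in the ventricle were counted in the same way. Of 20 macrophage and leukocyte markers 8 rose, Tyrobp, Csf1r, Cd14 and Cd68 among them, and 0 fell, 40% of the list against 6.37% of all genes. The median difference was 0.62. The count was 16 without GATA-4 array 1, 3 without LacZ array 3, and 5 without LacZ array 1 or 4 or GATA-4 array 3 or 4. Averaged over the list, LacZ arrays deviated by -0.58 to -0.12, GATA-4 arrays 2 to 5 by 0.37 to 0.60, and the dim array by -0.25. The part of these cells in the values of the 10 genes, and in those of Anpep, Flna and Tpm4, was not tested. On the dim array, where Acta2 was highest, the 10 genes averaged 0.29 above their overall mean. Their averages were -0.12 to 0.02 for LacZ and -0.06 to 0.15 for GATA-4 arrays 2 to 5. The endothelial list averaged 0.23 on the dim array and -0.18 to 0.002 on GATA-4 arrays 2 to 5. Of 16 endothelial markers 0 passed in limma, against 6.37% of all genes, and 4 passed without the dim array. Cardiomyocyte genes fell in 1 of 27, Ttn, by 0.27 on the log2 scale, which is 3.7% of the list against 6.37% of all genes. That list's median was -0.01, and it held 2 calls without GATA-4 array 2.

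Other lists counted few measured genes, and their counts stand beside the 6.37% of all genes that passed. Epicardial and mesothelial markers held 1 fall, Gpm6a, among 9 measured, and cytoplasmic actin and intermediate filament genes held 1 rise, Lmnb1, among 8. Krt18, a keratin gene in both lists, was past the threshold too, but its LacZ mean of 3.54 lay below the filter level of 5.17 and it was tested only through its GATA-4 arrays, with a mean of 7.28, so it is not read as support. Without GATA-4 array 3 it was not tested. Skeletal muscle markers held 1 fall, Myh1, among 4 measured of 13 on the array, with fast-fibre genes such as Myh4 and Actn3 below the signal filter. Adipocyte markers (3 measured, Adipoq and Plin1 below the filter) and erythroid markers (3 measured) had none that passed, apart from 1 adipocyte marker without GATA-4 array 1. Without that array skeletal markers held 2 calls. With Krt18 counted, as 2 calls in each list, the epicardial count was 0 without GATA-4 array 3 and 1 without any 1 of LacZ arrays 1 to 5 or GATA-4 arrays 4 and 5. The filament count was 1 without LacZ array 3 or GATA-4 array 3.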

How the data were processed

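The table of probe set intensities, on a linear scale, was deposited by the authors. GCOS is the software that the submitters' processing notes name, per the labels; no version, summary method or scaling is stated there. Names come from the platform annotation at GEO, brought to current RefSeq symbols through gene IDs (GRCr8; 20758 of 20826 single-gene probe sets matched). Promoter windows come from RefSeq on GRCr8, and 7 of 10 members had one.

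Groups follow each sample's source label, since titles do not separate them. Since 2%-trimmed means lay over 5% apart, log2 values were quantile normalized, then floored at 0. Probe sets above the 40th percentile of mean log2 signal were tested, 18625 in all and 10 of the 12 member probe sets, with limma 3.58.1 in R 4.3.3 (intensity trend, no covariate, Benjamini-Hochberg over all tested, threshold 0.05). The brightest tested probe set stood for its gene. Single values had exact two-sided permutation tests, smallest p 0.00794. No list was tested as a set. "Rose" and "fell" mean past the threshold. The fit was checked on simulated data. Alternatives were no normalization, median centring, an added constant of 16, another floor, no or a stricter filter, limma without trend, robust or with array weights (statmod 1.5.0), and each array left out; 2 were added after seeing the data, no GATA-4 arrays 4 and 5 (sample numbers apart) and median centring without GATA-4 array 1.

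The members, lists and pairs were chosen with earlier results of these data known. The text names all members, Gata4, up to 4 genes passing per list and direction, and the 5 genes most like Acta2 and Myh11. Other names are marked as chosen later. The order of levels between members is not given, since probe sets cannot be compared in level. The number of arrays limits the precision.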

Additional observations from a re-analysis of the deposited data

Results flagged for a closer look

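In 2 of 24 groups of 5 arrays, over the 12 member probe sets, an array lay so far from its neighbours that the gap took over 0.71 of the group's range, a gap that chance gives in about 1 of 20 groups. Acta2 read 10.50 on GATA-4 array 1, where the other GATA-4 arrays read 9.35 to 9.51. Cnn1 read 5.84 on GATA-4 array 4, where the others read 6.34 to 6.54.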

How the results depend on the processing

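Under all 21 alternatives no member was called higher. With median centring and no GATA-4 array 1, 1 member (Mylk) was called lower, where every other setting gave 0, and both counts were 0 whichever single array was left out. The log2 difference of Myh11 reversed its sign with the signals as deposited (-0.012), median centring (-0.014), array weights (-0.0015), no GATA-4 arrays 4 and 5 (-0.048), and median centring plus no GATA-4 array 1 (-0.11). With 1 array left out Myh11 ran from -0.085 to 0.15, below 0 without LacZ array 4, GATA-4 array 1 or GATA-4 array 5, and the log2 difference of Rgs5 from -0.070 to 0.0018, above 0 without GATA-4 array 4. Rgs5 was 0.021 with no GATA-4 arrays 4 and 5, and Des -0.14 under median centring plus no GATA-4 array 1. The other 7 members kept their sign. The causes were not tested.

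For all probe sets called the count was 988. It was 9 with the signals as deposited, 619 with no filter, 539 for limma without trend and 2890 with array weights. Leaving out GATA-4 arrays 4 and 5 gave 201, and median centring plus no GATA-4 array 1 gave 2616. With 1 array left out the count ran from 174, without LacZ array 3, to 2849, without GATA-4 array 1. The split of the 988 was 566 higher and 422 lower. Under median centring it was 322 and 401, and the median of all probe sets moved from -0.025 to -0.060. The wider contractile list had 5 calls, against 0 with the signals as deposited, 2 under median centring, 1 for limma without trend, 9 with array weights, 8 under median centring plus no GATA-4 array 1, and 1 to 10 with 1 array left out. Pericyte markers had 3, against 0 as deposited, 6 with array weights, 0 leaving out GATA-4 arrays 4 and 5, 5 under median centring plus no GATA-4 array 1, and 0 to 5 with 1 array left out. Myofibroblast markers had 5, against 0 as deposited, 15 with array weights, 10 under median centring plus no GATA-4 array 1, and 4 to 12 with 1 array left out. Cnn1 was below the stricter filter. No paired analysis was possible because the groups share no replicate numbers in the labels.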
